A study of Mus musculus with 18 samples.

Results

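The mRNAs of 10 immediate-early transcription factors were followed in NIH/3T3, a fibroblast line from mouse embryos, with and without the nuclear export receptor XPO4. They were chosen as a list of names among the 55401 genes of the mRNA-seq count files, by a rule with no threshold on their values. The choice was made with earlier results of these data known. The list comprises the Fos family (Fos, Fosb, Fosl1 and Fosl2), the Jun family (Jun, Junb and Jund), Egr1, Ier2 and Myc. The mRNA-seq part of the study held 3 libraries of WT cells and 3 libraries of XPO4 KO cells, the latter made with CRISPR-Cas9 and carrying the same edit on both gene copies. The cells grew in medium with fetal bovine serum, and no starvation or stimulation with serum is labelled, so the values are levels in cultures with serum and not a response over time. The KO is a single edited line, and nothing in the labels says that the libraries of a genotype came from separate cultures, so the tests measure the spread between these libraries, which may be technical.

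Immediate-early genes are transcribed within minutes of a growth signal without new protein synthesis, and their mRNAs are short-lived. Serum growth factors reach many of them, though not all, through the Ras, RAF, MEK and ERK kinases and through actin. At those genes both routes act on serum response factor (SRF) at CArG boxes. Fos and Jun family proteins pair through leucine zippers into AP-1, a factor that binds TGANTCA sites. Fos proteins need a Jun partner to bind DNA, whereas Jun proteins can also pair with each other. In fibroblasts these factors are known for coupling serum to entry into the cell cycle.

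Between 16974062 and 22057323 read pairs were assigned to genes in each library, and 14688 genes had enough counts to be tested, among them all 10 factors. KO replicate 2 stood apart. Its counts differed from those of the other KO libraries with a chi-square per gene of 10.6 and 12.3, against 3.05 to 4.98 for the other pairs of one genotype. The sample titles were followed for genotype, although the column heading inside all 6 files names the other one. The targeted gene did not tell which is right: Xpo4 had 657, 614 and 685 counts in WT and 712, 504 and 687 in KO, and its log2 fold change was 0.18 (SE 0.11, edgeR adjusted p = 0.193), or 0.34 (adjusted p = 0.000252) without KO replicate 2. An edited gene can still be transcribed. If the headings were right, every direction below would turn. The summed level of 9 fibroblast markers was 2678 to 2773 FPKM (read pairs scaled to exonic length and to the library's assigned total) in WT and 2772 to 2869 in KO. The summed level of 5 leukocyte markers was 4.36 to 6.24 in WT and 2.79 to 3.67 in KO, that of 6 epithelial markers was 2.67 to 2.96 in WT and 0.298 to 0.674 in KO with Epcam and Krt18 at 0 in all libraries, and that of 3 endothelial markers was at most 0.11. Sums hide single genes. Of the 9 fibroblast markers, 5 were higher and 3 lower in KO (edgeR adjusted p under 0.05). Cd68 made up most of the leukocyte sum, with means of 4.75 FPKM in WT and 2.90 in KO. Krt14 made up most of the epithelial sum, with means of 2.695 FPKM in WT and 0.376 in KO. The part of these markers in the results was not tested.

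The 10 genes lie on 8 chromosomes of the mouse genome (GRCm38), with only Ier2, Jund and Junb on the same one. Fos spans chr12:85473890-85477273 on the plus strand, Fosl2 spans chr5:32135801-32157842 on the plus strand, Jun spans chr4:95049034-95052222 on the minus strand and Junb spans chr8:84976910-84978718 on the minus strand. Ier2 spans chr8:84661331-84662854 on the minus strand and Myc spans chr15:61985391-61990374 on the plus strand. Fosb spans chr7:19302696-19310051 on the minus strand, Fosl1 spans chr19:5447547-5455946 on the plus strand and Jund spans chr8:70698949-70700616 on the plus strand. Jun, Junb, Jund and Ier2 each consist of a single exon interval. Counting did not use strand, and a read pair that lies on exons of 2 genes is assigned to neither by the counter's default. Fosl1 shares 1163 of its 2033 exonic bases with the opposite-strand gene Ccdc85b, Jund shares 877 of 1668 with Gm11175 and Jun shares 232 of 3189 with Junos. The levels per length of Fosl1 and Jund, and to a lesser extent Jun, are therefore uncertain, and they may be too low.

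Promoter sequences were looked up for the 10 factors in RefSeq (GRCm38.p6), where 6 had an entry (Fos, Fosb, Fosl2, Jun, Junb and Jund). The 250 bases before the start are shown for Fos, Jun and Junb. These are the 3 of the 6 whose mRNA differed between the genotypes and whose window holds no annotated exon of the gene itself. Fos, which was higher in KO, can thus be set beside Jun and Junb, which were lower. The window of Fosl2 lies in its annotated first exon and is not shown. The sequences come from chr12:85473640-85473889 (plus strand, Fos), chr4:95052223-95052472 (minus strand, Jun) and chr8:84978749-84978998 (minus strand, Junb), and capitals mark the motifs named after them.
Fos: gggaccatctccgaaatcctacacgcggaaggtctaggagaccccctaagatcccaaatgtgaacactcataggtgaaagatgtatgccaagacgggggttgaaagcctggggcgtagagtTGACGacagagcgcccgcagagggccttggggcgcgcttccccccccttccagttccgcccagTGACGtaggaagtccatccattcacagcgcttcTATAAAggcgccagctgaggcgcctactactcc
Jun: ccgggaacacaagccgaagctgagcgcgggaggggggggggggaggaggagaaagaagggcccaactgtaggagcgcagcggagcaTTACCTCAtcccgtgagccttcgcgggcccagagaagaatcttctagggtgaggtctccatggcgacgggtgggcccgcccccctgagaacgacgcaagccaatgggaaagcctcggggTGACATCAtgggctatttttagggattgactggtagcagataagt
Junb: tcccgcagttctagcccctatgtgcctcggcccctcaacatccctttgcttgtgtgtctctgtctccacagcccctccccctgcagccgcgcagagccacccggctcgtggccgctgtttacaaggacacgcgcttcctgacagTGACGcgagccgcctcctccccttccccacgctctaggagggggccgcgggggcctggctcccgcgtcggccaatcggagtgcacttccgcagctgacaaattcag
Motifs were searched on both strands from 250 bases before to 50 bases after each start. The Fos promoter held TATAAA 33 bases before the start and TGACG, the core of a cAMP response element, 129 and 66 bases before it. The Jun promoter held the AP-1-like words TTACCTCA and TGACATCA 164 and 45 bases before the start, Junb held TGACG 106 bases before it, and Fosl2 held GCGGGGGCG, a match to the site of the EGR factors, 79 bases before it. Fosb held an EGR match 50 bases and TGACG 60 bases before its start, and Junb held TATAAA at its RefSeq start. These distances are from the RefSeq start, which for Junb lies 30 bases upstream of the gene start given above and for Jund 1210 bases upstream, while those of Fos and Jun coincide with it. Of all 32851 promoters of the same length, 13.6% held TATAAA and 20.8% held TGACG. The shares were 3.62% for TGACATCA, 0.889% for TTACCTCA and 5.55% for the EGR site GCGNGGGCG. No CArG box, TGANTCA or TGACGTCA was found in these windows of the 6 factors, against 1.63%, 7.81% and 1.79% of all promoters. Bases further upstream were not searched, nor were the promoters of Fosl1, Egr1, Ier2 and Myc. It does not follow that the genes lack such sites. TGACG, TGACATCA and TTACCTCA were added to the search after the sequences were seen, and TGACG is part of TGACGTCA. These matches describe letters and not binding.

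The comparison of KO with WT addressed which of these factors had another mRNA level in cells without XPO4. Of the 10 factors, 7 passed the threshold (edgeR quasi-likelihood test, Benjamini-Hochberg adjusted p under 0.05 over all genes tested), with 3 higher and 4 lower in KO. Over all genes tested, 48.7% passed it, 25.1% higher and 23.6% lower, so that a call alone sets no factor apart from the transcriptome. Fos, Egr1 and Ier2 were higher in KO, while Jun, Junb, Fosl2 and Myc were lower. Fosb, Fosl1 and Jund did not pass. The median log2 fold change was 0.15 over the 10 factors and -0.0029 over all genes tested. The groups did not overlap for the 7 factors in FPKM, which held for 57.8% of all genes tested in counts scaled to the library total. The same 7 factors passed without KO replicate 2. With 3 libraries against 3, an exact permutation test of a single gene cannot give a p below 0.1.

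**Figure D1:**
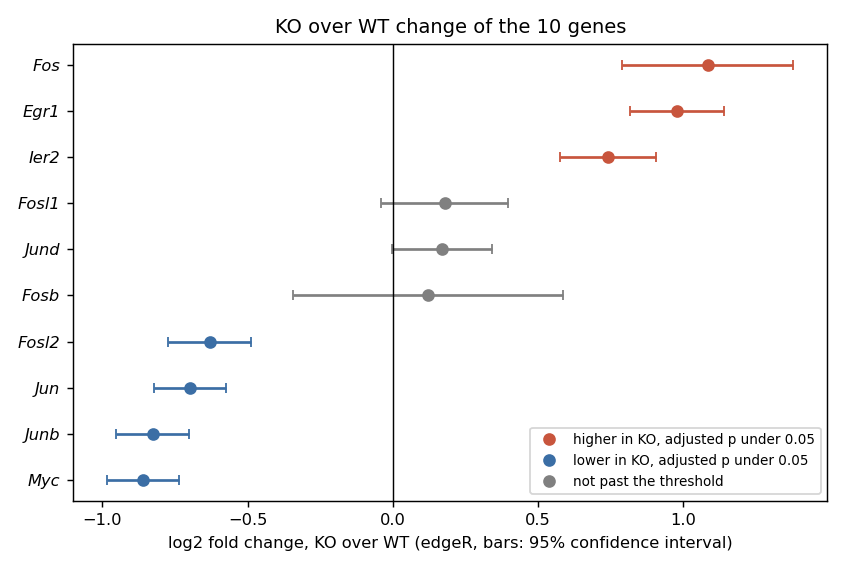
Log2 fold change of each of the 10 factors between KO and WT, from the edgeR fit, with its 95% confidence interval. Fos, Egr1 and Ier2 lie to the right of 0 and Fosl2, Jun, Junb and Myc to the left, while the intervals of Fosb, Fosl1 and Jund include 0.

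Fos, the AP-1 subunit best known for its brief burst after serum, was among the least abundant factors. Its level was 2.10, 2.003 and 1.77 FPKM in WT and 4.44, 4.22 and 3.78 FPKM in KO. Every KO library lay above every WT library, and the means of 1.96 ± 0.166 and 4.15 ± 0.334 FPKM (SD, n = 3) gave a 2.12-fold rise (log2 fold change 1.08, SE 0.14, adjusted p = 2.25e-05). These levels rest on 92 to 98 counts per WT library and 151 to 186 per KO library.

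Egr1, a zinc-finger activator that is induced through SRF and its ternary complex partners, spans chr18:34859823-34864984 on the plus strand and was higher in KO as well. It stood at 18.9, 15.7 and 18.5 FPKM in WT and at 37.5, 32.8 and 34.4 FPKM in KO. The groups were far apart, with means of 17.7 ± 1.74 and 34.9 ± 2.40 FPKM (SD, n = 3) and a fold of 1.97 (log2 fold change 0.98, SE 0.07, adjusted p = 2.14e-07). Ier2, a small nuclear protein encoded by a gene without introns, had 23.5, 21.3 and 23.8 FPKM in WT and 37.8, 41.3 and 35.6 FPKM in KO. Its lowest KO library was above its highest WT library, and the fold was 1.67 (log2 fold change 0.74, SE 0.08, adjusted p = 3.56e-06).

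**Figure D2:**
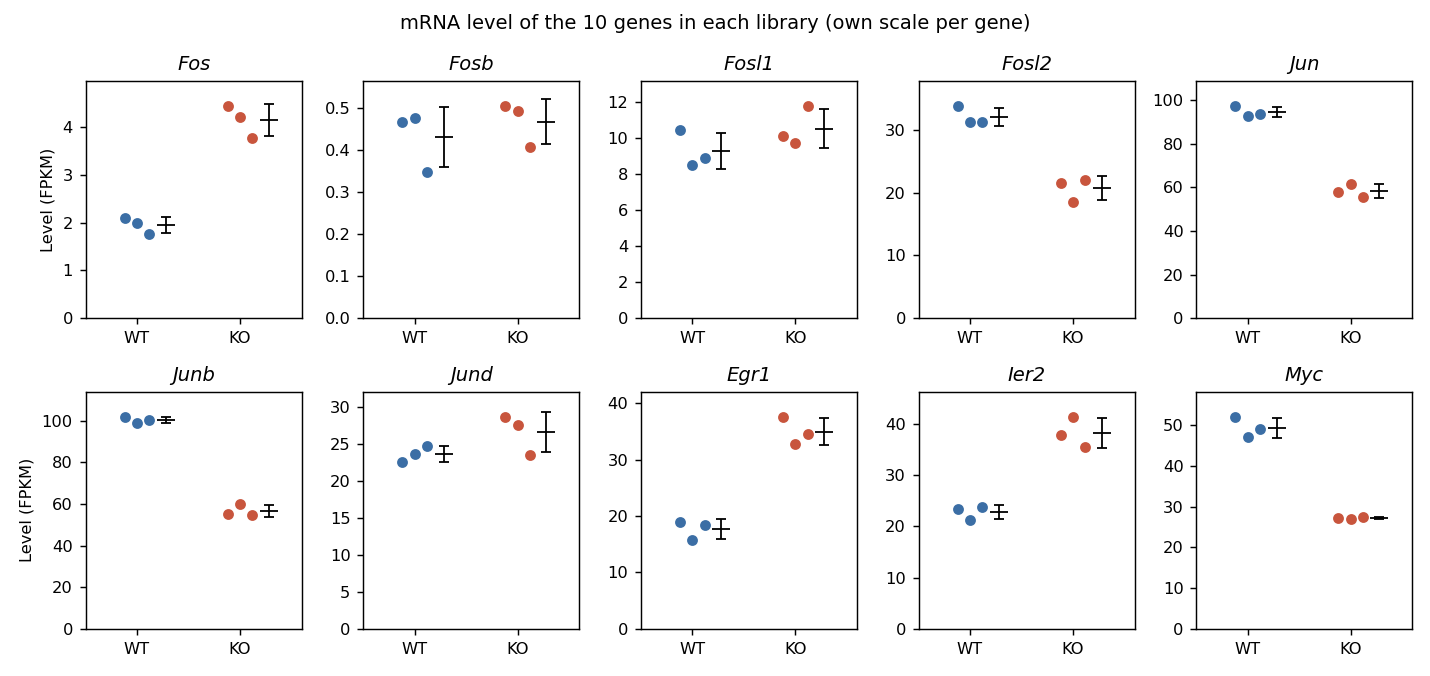
FPKM of each factor in each library, 1 panel per gene with its own linear axis starting at 0. Points are the 3 WT and the 3 KO libraries, and the bars give the mean and SD. WT and KO points are separate for Fos, Fosl2, Jun, Junb, Egr1, Ier2 and Myc, and they overlap for Fosb, Fosl1 and Jund.

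Myc, a helix-loop-helix factor that binds E-boxes with Max and promotes growth and ribosome production, had the smallest adjusted p of the 10 factors. Its level was 52.0, 47.1 and 49.1 FPKM in WT and 27.3, 26.9 and 27.5 FPKM in KO. The 3 KO libraries lay close together and all below the WT libraries, a 1.82-fold lower level in KO (log2 fold change -0.86, SE 0.06, adjusted p = 5.41e-08). Junb, a Jun protein that activates transcription less strongly than Jun in many settings, was 101.8, 98.8 and 100.3 FPKM in WT and 55, 59.8 and 54.9 FPKM in KO. It was 1.77-fold lower in KO (log2 fold change -0.83, SE 0.06, adjusted p = 8.90e-08), again with no overlap.

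Jun, the main activating subunit of AP-1 and a target of the JNK kinases, stood at 97.0, 92.7 and 93.7 FPKM in WT and at 57.9, 61.5 and 55.5 FPKM in KO. The level was 1.62-fold lower in KO (log2 fold change -0.70, SE 0.06, adjusted p = 4.31e-07). Fosl2, a Fos family member that lacks the strong activation domain of Fos, had the highest level of the Fos family per full exonic length. It had 33.7, 31.2 and 31.2 FPKM in WT and 21.6, 18.5 and 22.1 FPKM in KO. The groups did not overlap and the level was 1.55-fold lower in KO (log2 fold change -0.63, SE 0.07, adjusted p = 4.77e-06). This was the smallest change among the 7 factors, and 17.3% of all genes tested passed the threshold with a change at least as large in either direction.

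The remaining factors did not pass the threshold. Fosb, an inducible Fos protein, rested on 43 to 58 counts per library, or 0.349 to 0.476 FPKM in WT and 0.406 to 0.503 FPKM in KO. Its log2 fold change was 0.12 (95% interval -0.34 to 0.59, adjusted p = 0.664), and without WT replicate 3 it was -0.012, so that no direction can be given. Fosl1, known as a delayed member of the family, was 10.4, 8.54 and 8.92 FPKM in WT and 10.1, 9.74 and 11.8 FPKM in KO. The ranges overlapped (log2 fold change 0.18, 95% interval -0.04 to 0.40, adjusted p = 0.164). Jund, a Jun protein that is present in resting cells and little induced by serum, was 22.6, 23.6 and 24.7 FPKM in WT and 28.6, 27.6 and 23.6 FPKM in KO. Only KO replicate 3 lay within the WT range, and the log2 fold change of 0.17 (95% interval -0.0040 to 0.34, adjusted p = 0.0983) became 0.26 (adjusted p = 0.0116) without that library. For none of the 3 does the interval include the fold of Fos or, downward, that of Fosl2.

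The order of the factors by FPKM, a level per full exonic length, differed between the genotypes. In WT it ran from Junb (100.3 ± 1.49 FPKM, SD, n = 3) through Jun, Myc, Fosl2, Jund, Ier2, Egr1, Fosl1 and Fos to Fosb (0.431 ± 0.0711). The ranges of Jund and Ier2 overlapped and those of the other neighbours did not. In KO the order was Jun (58.3 ± 3.05 FPKM), Junb, Ier2, Egr1, Myc, Jund, Fosl2, Fosl1, Fos and Fosb (0.467 ± 0.0533). There Jun could not be told from Junb, nor Ier2 from Egr1, nor Myc from Jund. Egr1 was below Myc and Fosl2 in every WT library and above both in every KO library. The places of Jund, Fosl1 and Jun depended on the length used. In an alternative added after the data were seen, which divided by the bases that no other gene shares, Jund was 49.8 ± 2.28 FPKM in WT and 56.1 ± 5.65 in KO (SD, n = 3), overlapping Myc in WT and Junb in KO. Fosl1 was then 21.7 ± 2.35 FPKM in WT, overlapping Ier2 and above Egr1, and 24.6 ± 2.52 in KO, above Fosl2 at 20.7 ± 1.92. Jun and Junb overlapped in both genotypes.

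The makeup of the AP-1 families was described by their summed FPKM. The Jun family summed to 221.3, 215.1 and 218.7 FPKM in WT and to 141.5, 148.9 and 133.9 FPKM in KO. The sum was lower in all 3 KO libraries, at 0.648 of the WT mean (exact permutation p = 0.1, the smallest possible). Jund, which did not pass the test, took 10.8% ± 0.572 of the family in WT and 18.8% ± 1.34 in KO (SD, n = 3), while Junb went from 45.9% to 40.01% and Jun from 43.3% to 41.2%. The Fos family summed to 46.7, 42.2 and 42.3 FPKM in WT and to 36.6, 33.0 and 38.0 FPKM in KO. Fosl2 made up 73.3% ± 0.985 of it in WT and 57.7% ± 1.41 in KO, Fosl1 went from 21.2% to 29.4% and Fos from 4.48% to 11.6%. The groups did not overlap for these shares (exact permutation p = 0.1 each), whereas those of Fosb overlapped at 0.984% and 1.31% (p = 0.2). Shares of a sum move together. Per unshared base Fosl2 made up 57.1% in WT and 41.5% in KO, Fosl1 38.6% and 49.2%, and Jund 19.8% and 31.9% of its family, again without overlap, but the Fos family sums of 56.2 and 49.97 FPKM overlapped (exact permutation p = 0.2).

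**Figure D3:**
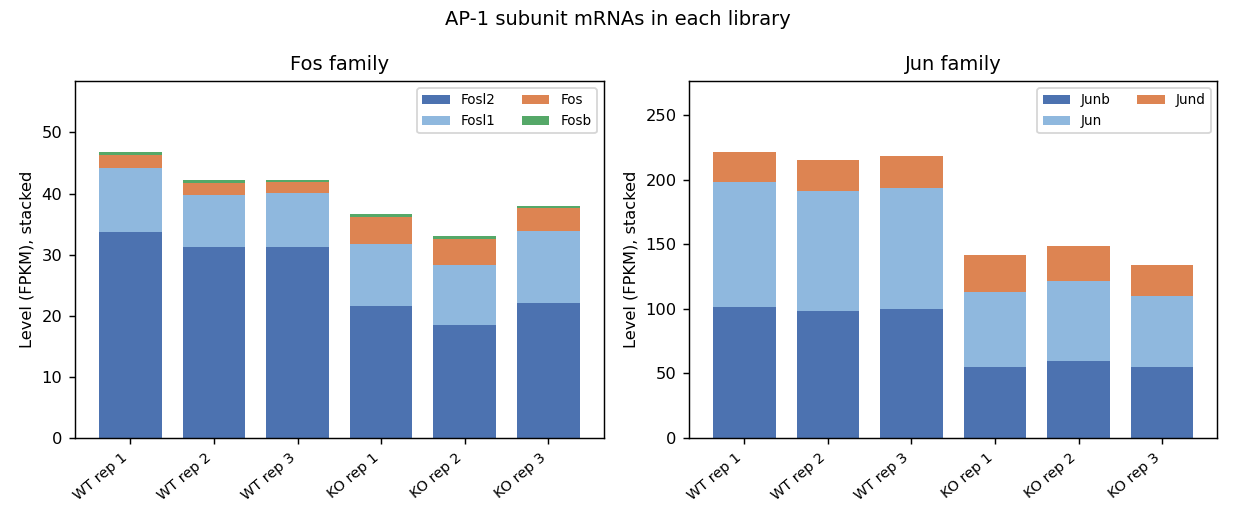
FPKM of the Fos family (left) and the Jun family (right) as 1 stacked bar per library, each segment 1 gene, with linear axes that start at 0. The mean height is 218.4 FPKM in WT and 141.5 FPKM in KO for the Jun family and 43.7 and 35.9 FPKM for the Fos family, and the Fos segment is taller in each KO bar than in each WT bar.

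Genes outside the 10 factors were taken from lists by role, which were chosen with earlier results of these data known. The counts of each list are therefore descriptions. They stand beside 25.1% higher and 23.6% lower in KO over all genes tested. Of 40 other immediate-early genes, 38 were tested, of which 19 were higher and 12 lower in KO, with a median log2 fold change of 0.25. Egr4 and Nr4a3 had too few counts. The largest rises were in Ccn2 (9.57 to 65.9 FPKM, log2 fold change 2.78), Nr4a1 (3.87 to 12.1 FPKM, 1.64) and Ccn1 (49.2 to 146.2 FPKM, 1.57). Ccn2 and Ccn1 encode matrix-associated proteins and Nr4a1 an orphan nuclear receptor. Among genes that averaged 50 counts or more in either genotype, the largest falls were in Cxcl1 (49.8 to 1.76 FPKM, -4.82) and Ccl2 (237.1 to 37.9 FPKM, -2.64), which encode chemokines, and in Atf3 (3.83 to 1.68 FPKM, -1.19), a bZIP factor of the stress response. As in the 10 factors, genes of the same list moved in both directions.

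Of 23 genes for SRF, its cofactors and the kinases upstream of the factors, 22 were tested, of which 6 were higher and 8 lower (median -0.10). Elk3, a ternary complex factor that binds beside SRF, was 15.9 FPKM in WT and 31.7 in KO (log2 fold change 1.00). Map2k2, which encodes MEK2, and Srf itself were higher by 0.56 and 0.49 on the log2 scale. Mrtfb, an actin-regulated SRF coactivator, and the kinase genes Rps6ka2 and Rps6ka5 were lower with log2 fold changes of -0.51, -0.51 and -0.49. Of 13 genes that dampen or report ERK signalling, 12 were higher in KO and none was lower, with a median of 0.81, the highest of these lists. This list too was chosen with earlier results of these data known, so its shared direction is a description and not independent evidence. Errfi1, an inhibitor of the EGF receptor, went from 8.80 to 24.3 FPKM (1.46). Spry1 and Spry2, Sprouty inhibitors of receptor tyrosine kinase signalling, had log2 fold changes of 1.40 and 1.35. Spred3, at -0.04 (adjusted p = 0.749), was the gene of this list that did not pass. These are mRNA levels, and ERK activity was not measured.

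**Figure D4:**
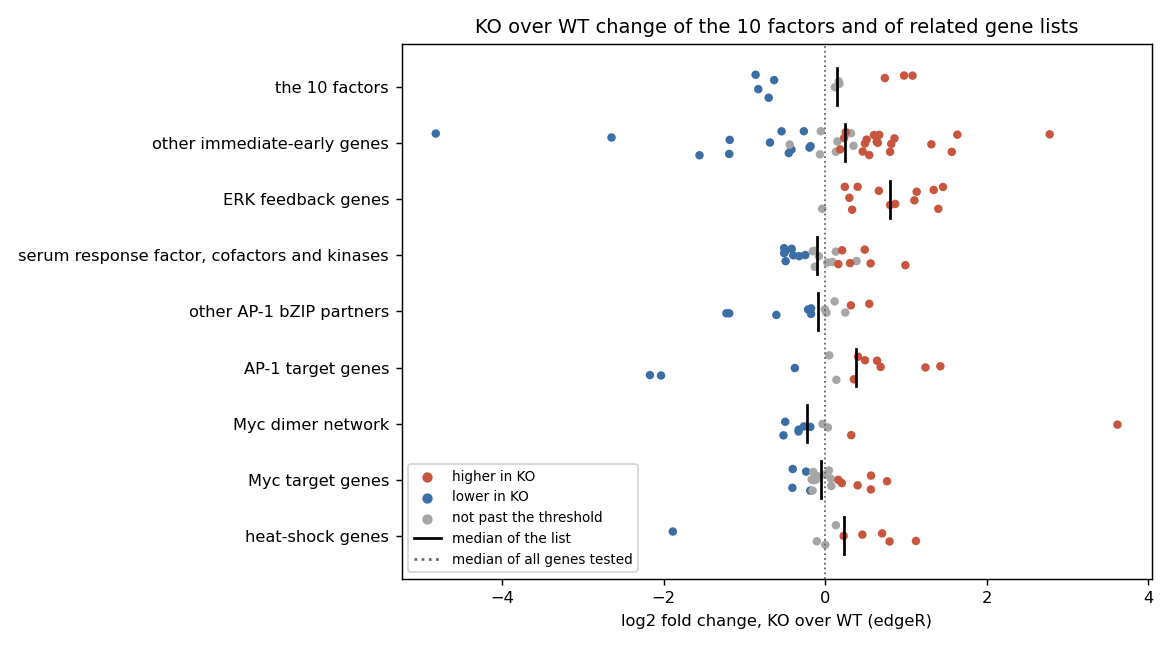
Log2 fold change between KO and WT of every tested gene of each list, 1 point per gene, with the median of each list as a black line and the median of all genes tested as a dotted line. Genes of the ERK feedback list lie to the right of 0 except Spred3 at -0.04, while the 10 factors and the other immediate-early genes spread to both sides of 0. All lists were chosen with earlier results of these data known.

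Of 15 other bZIP partners of AP-1, 12 were tested, of which 2 were higher and 6 lower (median -0.09). The small Maf genes Maff and Mafk were higher (0.55 and 0.32 on the log2 scale), and Atf3 (-1.19) and Maf (-0.60) were lower. The number of calls was 5 rather than 8 without WT replicate 3, without KO replicate 1 or without KO replicate 3. Of 15 AP-1 target genes, 12 were tested, of which 7 were higher and 3 lower (median 0.38). Spp1, which encodes osteopontin, rose from 233.8 to 629.8 FPKM (1.43), the cyclin gene Ccnd1 from 17.7 to 42.1 FPKM (1.24), and Hmga1, a chromatin architecture gene, had a log2 fold change of 0.69. Mmp9, a matrix protease, fell from 12.4 to 2.75 FPKM (-2.17), the cytokine gene Il6 from 2.40 to 0.587 FPKM (-2.03), and the protease inhibitor gene Timp1 had a log2 fold change of -0.37. AP-1 protein and its binding were not measured in these libraries. Atf3, Maff, Hbegf and Phlda1 are each on more than a single list.

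Around Myc, 10 of 12 genes of its dimer network were tested, with 2 higher and 6 lower (median -0.22), and 5 calls rather than 8 without WT replicate 1. Mlx was higher (0.32), while Mxi1 (-0.52), Mga (-0.49) and Mxd1 (-0.33) were lower. Mxi1 and Mxd1 encode repressors that compete with Myc for Max. Mxd1 did not pass without WT replicate 1 (-0.24, adjusted p = 0.0786). The other higher gene was Mycn, a Myc paralog named here after its values were seen, with 2, 1 and 4 counts in WT and 38, 25 and 15 in KO, far fewer than the 2498 to 2943 counts of Myc in WT and the 1270 to 1321 in KO.

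Against 25.1% higher and 23.6% lower over all genes tested, 6 of the 20 listed Myc target genes were higher and 4 lower, with a median of -0.05. All 20 were tested. Without KO replicate 2, the library that stood apart, 5 were higher and 9 lower. Ccnd2, Eif4e and Pa2g4 were higher (0.77, 0.57 and 0.57 on the log2 scale), and the nucleolar genes Ncl and Npm1 (-0.40 and -0.23) and Cad, an enzyme of pyrimidine synthesis (-0.40), were lower. Pvt1, the long noncoding RNA gene next to Myc, was 5.74 ± 0.532 FPKM in WT and 3.63 ± 0.148 in KO (SD, n = 3; log2 fold change -0.66, adjusted p = 1.67e-05), which is the direction of Myc. The 5 genes whose scaled log2 counts (CPM) were most like those of Myc over the 6 libraries, among 11691 searched, were Zcwpw1, Repin1, Foxp1, Slc39a14 and Chac1, with root mean square differences of 0.0145 to 0.0410. Their log2 fold changes ran from -0.88 to -0.81. A search of this many genes over 6 libraries will return close matches, and a relation to Myc beyond the like fall was not tested.

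Circular RNAs (circRNAs) were listed in 12 further libraries of RNase R treated nuclear, cytoplasmic and whole-cell RNA of both genotypes, with 2189 to 81941 junction reads each. Only Fosl2 of the 10 factors had a listed circRNA, a circle of 252 bases at chr5:32146825-32147076. It had 3 and 5 junction reads in the whole-cell WT libraries and 4 and 1 in the whole-cell KO libraries, with none listed in the nuclear or cytoplasmic ones. The totals of those libraries were 57780 and 55109 for WT against 58165 and 50341 for KO. No test was run on reads this few, and whether the whole-cell libraries bear the right labels and their lists are complete was not tested. The other 9 factors had none listed, and 4 of them, Jun, Junb, Jund and Ier2, have no intron in the annotation.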

How the data were processed

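Total RNA of WT and XPO4 KO NIH/3T3 cells was sequenced as pairs. The paper describes rRNA removal for its RIP and nucleocytoplasmic libraries and gives no separate preparation for the mRNA-seq ones. The authors aligned reads with HISAT2 and counted them per gene with featureCounts (version 2.0.0, per the submitters' processing notes) on GRCm38, and the deposited counts are whole numbers without normalization. The circRNA lists hold the authors' deposited counts of junction reads. Samples were grouped by title.

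Of 55401 gene identifiers, 55141 matched a symbol without their version suffix. KO and WT were compared with edgeR (version 4.0.16, R 4.3.3; TMM, filterByExpr, glmQLFit and glmQLFTest), adjusted by Benjamini-Hochberg over 14688 genes at 0.05, after a test on simulated counts. Each library held 16974062 to 22057323 assigned pairs, which limits genes of low count such as Fosb, and intervals cover the spread between libraries. FPKM was computed from counts, assigned totals and merged exon length. Single values had two-sided exact permutation tests. The 10 factors and all lists were chosen with earlier results of these data known. In each list up to 3 genes per direction were named, by size of change among those past the threshold, without overlap and with a mean count of at least 50. Alternatives were DESeq2 (version 1.42.0), its size factors, library totals, no filter, TPM, a replicate block, leaving out each library and, added after the data were seen, unshared exonic length. Hspb1, Mycn and the genes without a call were named outside this rule, and a gene that the rule picks is not reported here.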

Additional observations from a re-analysis of the deposited data

Results flagged for a closer look

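The circRNA lists, which lie outside the mRNA comparison, held 13 junction reads within Fosl2 over all 12 libraries, a signal outside the main measurement. All 13 were at a single circle of 252 bases in whole-cell RNA, 8 in WT and 5 in KO.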

How the results depend on the processing

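The number of factors past the threshold was 7 under edgeR with DESeq2 size factors, with library totals, without a filter on low counts, with DESeq2 and with the replicate block, and 7 to 8 when each library was left out, Jund being the eighth without KO replicate 3. Over all genes the number of calls was 7151, and 6143 to 7397 when each library was left out, with 6662 under DESeq2 and 7696 without the filter. The median log2 fold change of all genes moved to -0.071 without the filter. Without WT replicate 3, Fosb turned from a log2 fold change of 0.12 to -0.012, and its range was -0.012 to 0.22 when each library was left out. Hspa1a (0.80, adjusted p = 0.0115) did not pass without KO replicate 1 (0.61, adjusted p = 0.0669). The cause of these changes was not tested. FPKM of the groups did not overlap for 7 factors, also per unshared base and in TPM, and for 7 to 9 when each library was left out. Without KO replicate 3, Fosb and Jund did not overlap either.

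The labels give both genotypes the replicate numbers 1 to 3, but deviations of same-numbered libraries correlated at 0.0615, 0.0359 and -0.0889, so the numbers were not taken as pairs. With the replicate block, 7124 genes passed, 3660 higher and 3464 lower, and 7 of the 10 factors. Not every library correlated best with its own number. Depth limits genes of low count such as Fosb, at 43 to 58 counts per library.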

Other observations

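Of 9 heat-shock genes, which respond to protein stress, 5 were higher and 1 was lower in KO (median log2 fold change 0.23, edgeR). Over all genes tested, 25.1% were higher and 23.6% lower, and this list too was chosen with earlier results of these data known. Hsph1, a chaperone cofactor of HSP70, was 13.2, 12.1 and 11.7 FPKM in WT and 26.9, 26.0 and 27.8 FPKM in KO (log2 fold change 1.13, adjusted p = 6.69e-09). Hspa1b and Hspa1a, which encode near-identical HSP70 proteins and may share reads, had log2 fold changes of 0.71 and 0.80. The lower gene, named after its values were seen, was Hspb1, with 48, 26 and 39 counts in WT and 7, 12 and 7 in KO.

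Pvt1, the neighbour of Myc, gave a circle of 318 bases at chr15:62107148-62107465. Whole-cell RNA of WT gave 1 and 2 junction reads of this circle, whereas whole-cell RNA of KO gave 566 and 569. Cytoplasmic libraries gave 834 and 838 for WT against 436 and 1282 for KO. The nuclear libraries gave 1 and 14 for WT against 10 and 28 for KO. The library totals were 57780 and 55109 junction reads for whole-cell WT, 58165 and 50341 for whole-cell KO, 77818 and 81941 for cytoplasmic WT, 50629 and 63335 for cytoplasmic KO, 2189 and 2635 for nuclear WT and 3743 and 4383 for nuclear KO. Whole-cell RNA includes the cytoplasm, and the whole-cell and cytoplasmic WT totals differ far less than the reads of this circle. Other Pvt1 circles in whole-cell RNA differed by far fewer reads. That at chr15:62107148-62149352 had 12 and 6 in WT and 12 and 16 in KO. The circle at chr15:62107148-62160128 had 2 and 1 in WT and 13 and 10 in KO. Whether all circRNA libraries bear the right label and whether the lists are complete was not tested, so no direction is given for this circle, and the whole-cell reads of Fosl2 carry the same doubt. This gene was looked at after its values were seen.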
